A study of Sus scrofa domesticus with 4 samples.

Results

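The genes of adiponectin reception and early signalling were followed in porcine anterior pituitary cells cultured with or without adiponectin. The list held 7 genes: the receptors ADIPOR1 and ADIPOR2, the binding protein T-cadherin (CDH13), the adaptor APPL1, the catalytic subunits PRKAA1 and PRKAA2 of the AMP-activated protein kinase (AMPK), and ADIPOQ, which encodes adiponectin itself. Every array probe whose RefSeq accession belonged to 1 of these genes was taken, which gave 11 of 43603 probes and covered 6 of the 7 genes. The 6 genes stood among 2459 with a symbol here, and PRKAA1 was not analysed here. The rule uses the annotation of the probes and no signal or ratio. Of the 11 probes, 9 could be tested, at least 1 for each of the 6 genes.

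Primary cells came from the anterior pituitary lobes of mature Large White x Polish Landrace gilts aged 7 to 8 months, taken on days 10 to 12 of the oestrous cycle by the growth protocol. A sample label gives the same days as a period of pregnancy. After 48 h of preculture the cells were kept for 24 h in serum-free medium, either untreated (control) or with recombinant human adiponectin at 10 µg/ml. Serum was present for both groups during the preculture. Each of 4 oligonucleotide arrays carried RNA of both groups, 1 in each colour. The treated sample had the red dye Cy5 on arrays 1 and 3 and the green dye Cy3 on arrays 2 and 4. Pituitaries of 4 gilts were used. No label ties a gilt to an array, so the p-values measure the spread between these 4 arrays.

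Adiponectin is a hormone secreted mainly by fat cells. It binds ADIPOR1 and ADIPOR2, membrane proteins with their amino terminus inside the cell, and APPL1 binds the intracellular part of both receptors. Downstream, AMPK is activated, a kinase that senses cellular energy and consists of a catalytic alpha subunit with regulatory beta and gamma subunits. PRKAA1 and PRKAA2 encode the alternative alpha subunits, and activation works through phosphorylation, which arrays of RNA do not measure. T-cadherin is held to the cell surface by a lipid anchor and binds the large multimers of the hormone. Both receptors are expressed in many tissues, the pituitary among them.

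The cells were first checked against markers. All 9 genes of pituitary hormone cells with a probe, among them GH1, PRL and POMC, were well above background in both channels on all 4 arrays by the scanner software's test. So were 3 of 6 adipocyte genes, 2 of 3 of macrophages, 2 of 2 of endothelial cells and 1 of 1 of fibroblasts and pericytes. Of lymphocyte genes 1 of 4 were, and of red blood cells 1 of 1, so the check did not single out hormone cells. A gene was counted if at least 1 of its probes passed the scanner software's test in both channels on all 4 arrays. A further probe of POU1F1 and of GNRHR, among the 9 hormone cell genes, did not. Between 25089 and 29734 probes per channel passed that test, and no spot was saturated. Below, a ratio is the log2 of treated over control brightness. The fitted ratio comes from a linear model with a dye term (limma). Ratios of single arrays are normalized between the dyes by loess within the array, but still hold the dye term of the probe. Over all tested probes, the ratios of arrays 1 and 3, and those of arrays 2 and 4, correlated with each other (mean r = 0.41). The 4 pairs with swapped dyes had a mean r of -0.46, so single arrays differed by dye orientation well beyond the genes described here.

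No difference between adiponectin-treated and control cells passed the test for any of the 6 genes. In the limma fit 0 of the 9 tested probes passed an adjusted p of 0.05, and 0 had an unadjusted p under 0.05. Over all 25912 tested probes the adjusted threshold was passed by 0% and the unadjusted one by 2.77%. The fitted ratios of the 9 probes ran from -0.07 for CDH13 to 0.09 for the second probe of APPL1. Their median was -0.02, with 4 above and 5 below 0, against a median of 0.001 over all tested probes, of which 50.7% were above 0. The lowest bound of their 95% intervals was a 0.857-fold and the highest a 1.23-fold change, so changes beyond these lie outside all 9 intervals of this fit. Some other settings gave wider intervals. The lower bound of CDH13 was a log2 ratio of -0.37 without a dye term. The upper bound of the second APPL1 probe was 0.39 with median centring. Of the 9 probes, 0 had 1 sign on all 4 arrays, against 5.74% of all tested probes. A constant of 50 added to each signal pulls the ratios of dim probes towards 0, and for them the bounds are too narrow. With no offset the intervals were wider for all 9 probes, bright ones included. That of PRKAA2 was then -0.16 to 0.25, against -0.12 to 0.20 with the offset. That of the dim CDH13 was -0.30 to 0.10, against -0.22 to 0.08.

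ADIPOR1 encodes the receptor tied mainly to AMPK. Its brighter probe (A_72_P077761, for the transcript NM_001007193) had signals of 721, 488, 860 and 920 in the treated channel on arrays 1 to 4. The control channel read 570.5, 641, 1028 and 567, over local backgrounds of 26 to 35. These raw signals carry the strength of each dye, and neither channel was the brighter one throughout. After normalization the ratios were -0.05, 0.07, -0.28 and 0.19, below 0 on both arrays with treated RNA in Cy5 and above 0 on both with treated RNA in Cy3. The fitted ratio was -0.02 ± 0.07 (SE, n = 4 arrays), a 0.987-fold change with a 95% interval of 0.883 to 1.10 (limma adjusted p = 0.9999). The second probe of ADIPOR1 (A_72_P187361) was steadier, with ratios of 0.08, 0.01, -0.04 and 0.08. Its fitted ratio was 0.03 (95% interval -0.12 to 0.18), of the opposite sign to the first. The distance between both probes on an array reached 0.24, on array 3, so the sign for ADIPOR1 was not settled between its own probes.

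ADIPOR2 encodes the receptor tied mainly to PPAR-alpha and fatty acid oxidation. The tested probe (A_72_P302919, for NM_001007192) read 328, 315, 351 and 435 in the treated channel and 275, 367, 434 and 269 in the control channel. Its ratios were -0.04, 0.16, -0.21 and 0.12, again split by dye orientation. The fitted ratio was 0.01 ± 0.07 (SE, n = 4 arrays), a 1.01-fold change with an interval of 0.906 to 1.12 (limma adjusted p = 0.9999). A further probe of ADIPOR2 (A_72_P440141) had a local background marked as uneven on 3 of 4 arrays and was not tested. With such spots kept its ratios were 0.07, -0.01, 0.07 and -0.12. The fit then gave 0.002 (-0.13 to 0.13). Both probes thus lay near 0, with arrays on either side.

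CDH13 encodes T-cadherin. Its brighter probe (A_72_P760916, for NM_001109945) was dim, with signals of 139, 141, 133 and 243 in the treated channel and 173, 140, 192 and 131 in the control channel, over backgrounds of 24 to 33. It was still well above background in both channels on all 4 arrays. The ratios were -0.45, 0.19, -0.28 and 0.24, a wide spread between arrays (SD 0.34). The fitted ratio was -0.07 ± 0.07 (SE, n = 4 arrays), a 0.9504-fold change with an interval of 0.857 to 1.05 (limma adjusted p = 0.9999). The second probe (A_72_P035881) followed the first, with the same sign on 4 of 4 arrays. Its ratios were -0.31, 0.09, -0.22 and 0.28 and its fitted ratio -0.04 (-0.19 to 0.11). Treated RNA in Cy5 gave low and treated RNA in Cy3 gave high ratios for both probes, so the sign on a single array followed the dye.

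APPL1 encodes the adaptor that binds both receptors. The brighter probe (A_72_P440191, for NM_001134966) read 696, 624.5, 680 and 737 in the treated and 620, 795, 711.5 and 497 in the control channel. Its ratios were -0.20, 0.09, -0.05 and 0.03, and the fitted ratio was -0.03 ± 0.06 (SE, n = 4 arrays) with an interval of -0.18 to 0.12 (limma adjusted p = 0.9999). The second probe (A_72_P383898) had the highest fitted ratio of the set, 0.09 ± 0.09 (-0.11 to 0.29, limma adjusted p = 0.9999). It was above 0 on 3 arrays, at 0.21, 0.26 and 0.15 on arrays 2 to 4, and at -0.25 on array 1. Without array 3 its fitted ratio was -0.03, and without array 1 it was 0.22. The difference between both probes of APPL1 ran from -0.31 to 0.05 over the arrays, so here too the probes of 1 gene differed by more than the fitted ratio of either.

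PRKAA2 encodes the alpha2 catalytic subunit of AMPK and had 1 probe (A_72_P035741, for NM_214266). It read 2468.5, 2539, 2326 and 2343.5 in the treated channel and 2118, 2569.5, 2619 and 1504.5 in the control channel. These raw signals carry the strength of each dye. After normalization the SD of the levels between arrays was 0.35 in treated and 0.31 in control cells. The ratios were -0.22, 0.45, -0.24 and 0.18, below 0 with treated RNA in Cy5 and above 0 with treated RNA in Cy3. The fitted ratio was 0.04 ± 0.07 (SE, n = 4 arrays), a 1.03-fold change with an interval of 0.920 to 1.15 (limma adjusted p = 0.9999). Without array 2, the array with the highest ratio, the fitted ratio was -0.03. Of the regulatory subunits, the gamma subunit gene PRKAG1 was the 1 tested, at -0.04 (-0.19 to 0.12).

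ADIPOQ, the hormone's own gene, was close to the limit of detection. The tested probe (A_72_P165401, for NM_214370) read 100, 106, 93 and 164 in the treated channel and 105, 103, 135 and 101 in the control channel, over backgrounds of 24 to 37. It was well above background in both channels on 4 of 4 arrays. The other probe (A_72_P767053) read 42 to 75 in the treated and 41 to 80 in the control channel and was well above background in neither channel on any array, so no fold is given for it. The ratios of the tested probe were -0.01, 0.04, -0.13 and 0.01, and the fitted ratio was -0.02 (-0.17 to 0.12, limma adjusted p = 0.9999). Among 6 adipocyte marker genes with a probe, ADIPOQ, LEP and LIPE were well above background in both channels on all 4 arrays. PLIN1 and CIDEC, the genes of lipid droplet proteins, were above it on none, and FABP4, the fatty acid binding protein of fat cells, on at most 3 of 4 arrays in a channel. Whether the signal of the ADIPOQ probe came from this transcript was not tested.

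**Figure D1:**
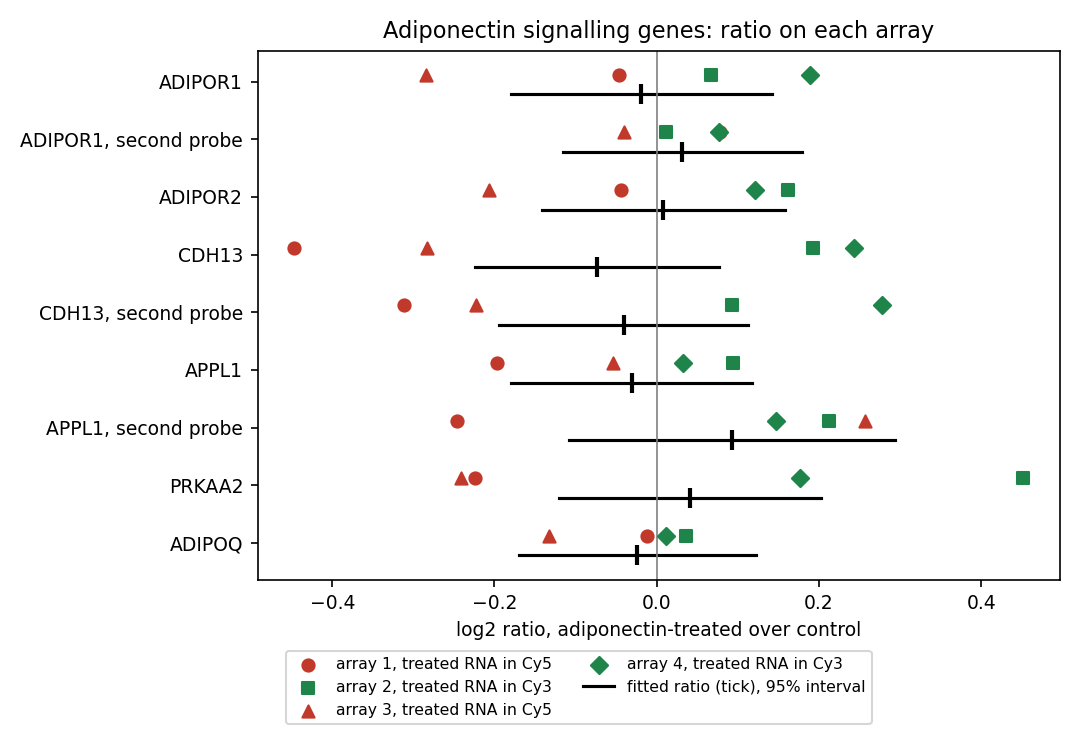
Log2 ratio of treated over control cells (horizontal axis) for the 9 tested probes of 6 genes, 1 symbol per array, red where treated RNA carried Cy5 and green where it carried Cy3. The black tick and bar give the fitted ratio and its 95% interval, and each bar holds 0. All 9 probes lie above 0 on arrays 2 and 4, and 1 of 9 does so on array 1 and on array 3. For the second probe of ADIPOR1 the symbols of arrays 1 and 4 overlap at 0.08.

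The channels were then compared as levels, after normalization of brightness between arrays. The level of ADIPOR1 was 9.49 ± 0.14 in treated and 9.50 ± 0.25 in control cells (log2 brightness, SD, n = 4). That of ADIPOR2 was 8.49 ± 0.12 and 8.48 ± 0.11. CDH13 had 7.45 ± 0.19 and 7.53 ± 0.27. For APPL1 the levels were 9.41 ± 0.24 and 9.44 ± 0.27, for PRKAA2 11.19 ± 0.35 and 11.15 ± 0.31, and for ADIPOQ 7.02 ± 0.13 and 7.04 ± 0.09. Levels of treated and control cells overlapped for all 9 tested probes, and over the 25037 probes with 4 arrays they failed to overlap for 0.220%. For each gene the difference between groups was smaller than the SD of the levels between arrays. That SD also holds differences between arrays that both channels of an array share, so it does not measure the precision of the ratio. Brightness depends on the probe, so the levels give no order among the genes.

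**Figure D2:**
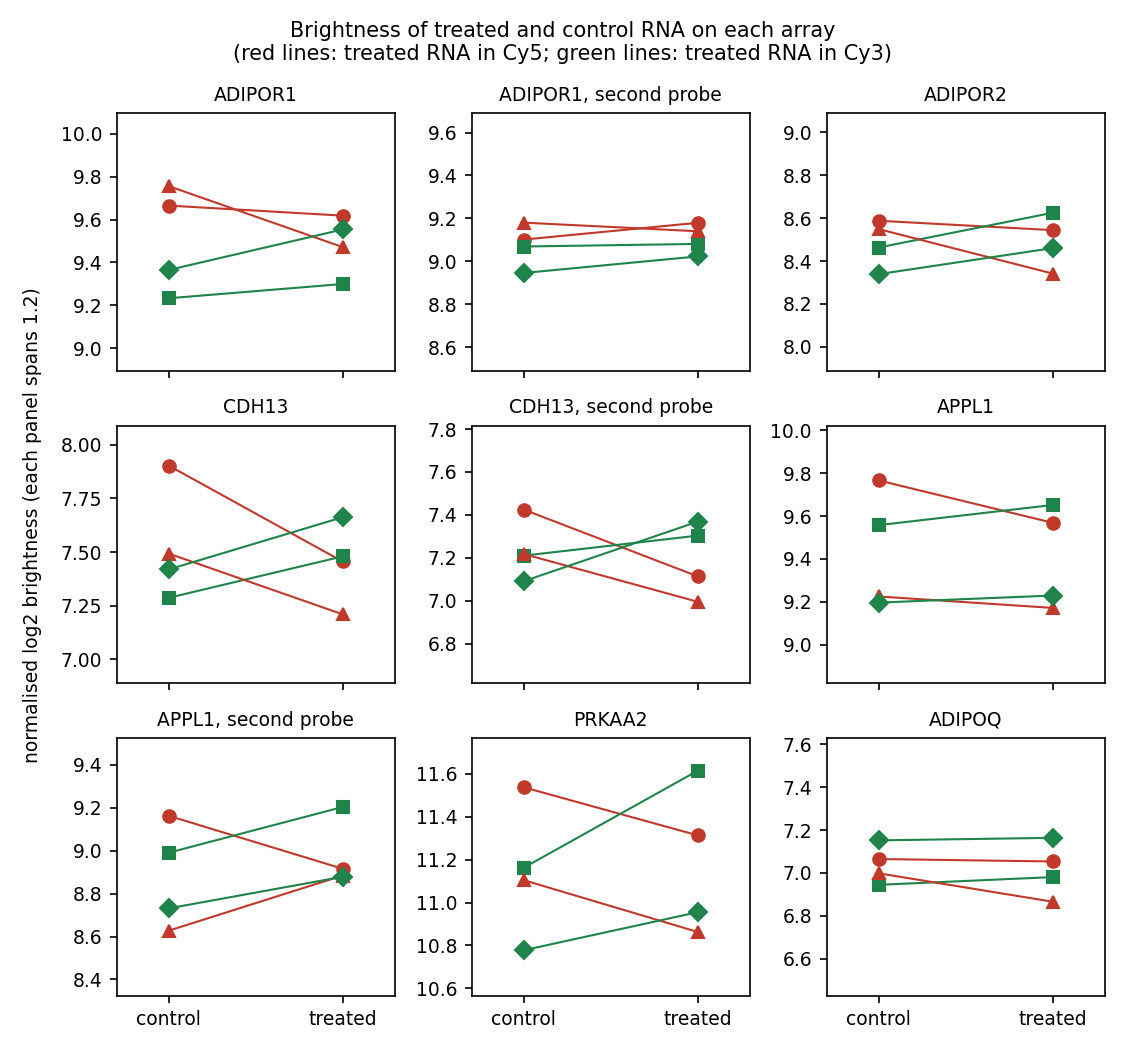
Normalised log2 brightness of control and treated RNA (vertical axis, each panel spanning 1.2) for the 9 tested probes. Each line joins both channels of 1 array, red where treated RNA carried Cy5 and green where it carried Cy3. The lines of CDH13 and PRKAA2 differ in slope by dye, sloping down in red and up in green, and for ADIPOQ the gap between treated and control on an array is at most 0.13.

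Since single arrays split by dye, the dye term of the fit (red over green brightness, whichever RNA carried the dye) was set beside the treatment term. It was below 0, so green was on average the brighter channel after loess normalization, for 9 of 9 probes, against 49.0% of all tested probes. The raw signals need not follow it. For PRKAA2 raw red was above raw green on arrays 1 and 2 and below it on arrays 3 and 4. The dye term ran from -0.29 for CDH13 and -0.27 for PRKAA2 to -0.01 for the second probe of ADIPOR1. It passed an adjusted p of 0.05 for 1 of the 9 probes, that of CDH13 (limma adjusted p = 0.0402), against 6.21% of all probes. It passed there too with no offset, and for 0 of 9 probes without background correction, with median centring, with uneven spots kept, with the scanner software's log ratio and in the series matrix. For CDH13 the term was still -0.29 without background correction and -0.28 with median centring. The count below 0 differed between settings as well. When the log ratio came from the scanner software, the dye term was below 0 for 6 of 9, with 0.18 for ADIPOR1 and -0.15 for CDH13, and with median centring for 8 of 9.

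**Figure D3:**
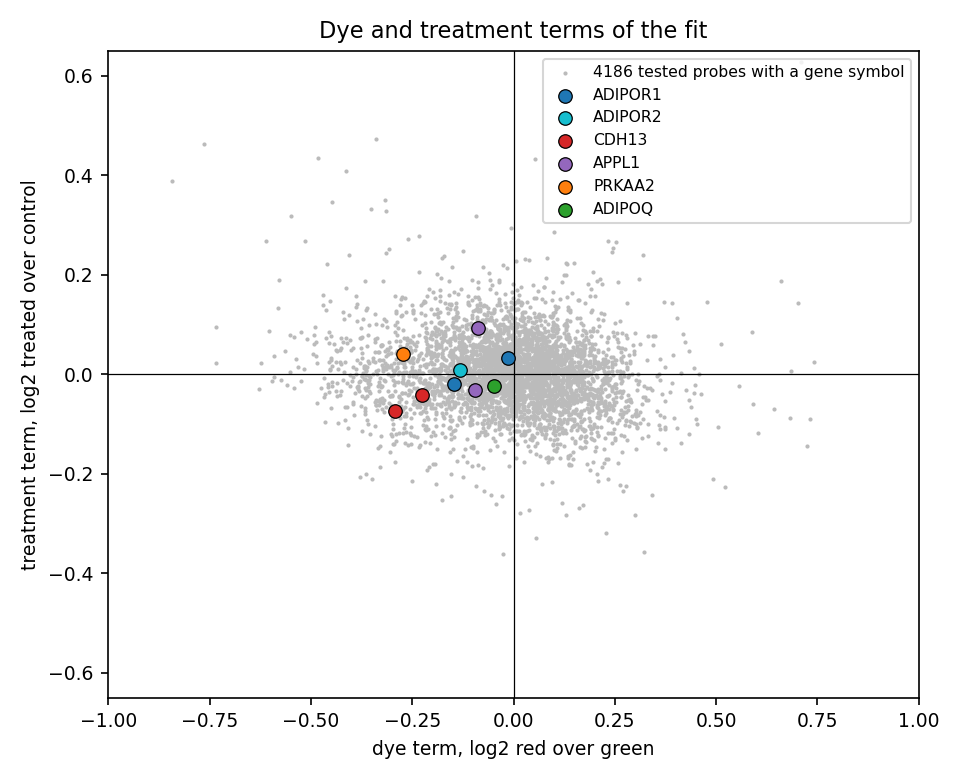
Dye term (horizontal axis, log2 red over green) against treatment term (vertical axis, log2 treated over control) of the fit. Grey points are the 4186 tested probes with a gene symbol, 2 of which lie outside the axes, and coloured points are the 9 tested probes of the 6 genes. The coloured points all lie left of 0 and close to the horizontal line.

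This split bears on the direction of the comparison. The channel labels of each array put the dyes as described above, and the deposited series matrix follows them. The wording of the labelling protocol instead names Cy3 for the controls and Cy5 for the treated cells, with no swap. Read that way, treatment and dye cannot be told apart, and the ratio equals the dye term, here tested in a fit without a separate dye term. The ratio of CDH13 was then -0.29 (-0.44 to -0.15, limma adjusted p = 0.0284) and that of PRKAA2 -0.27 (-0.42 to -0.13, limma adjusted p = 0.0370). So 2 of 9 probes passed the threshold in either direction, against 2331 of 25912 tested probes. Both were lower, and of all probes 5.97% were lower past the threshold. ADIPOR1 had -0.15 and ADIPOR2 -0.13, with adjusted p of 0.173 and 0.176 by limma. The second probe of CDH13 had -0.23 (adjusted p = 0.0539 by limma). Under the same reading with the scanner software's log ratio, tried after seeing the data, 0 of 9 probes and 43 of 25912 probes passed. That ratio differs in background correction, offset and normalization together, and which of them moved the calls was not tested. CDH13 then had -0.15 (-0.34 to 0.03), PRKAA2 -0.15 (-0.34 to 0.05) and ADIPOR1 0.18 (-0.001 to 0.35).

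**Figure D4:**
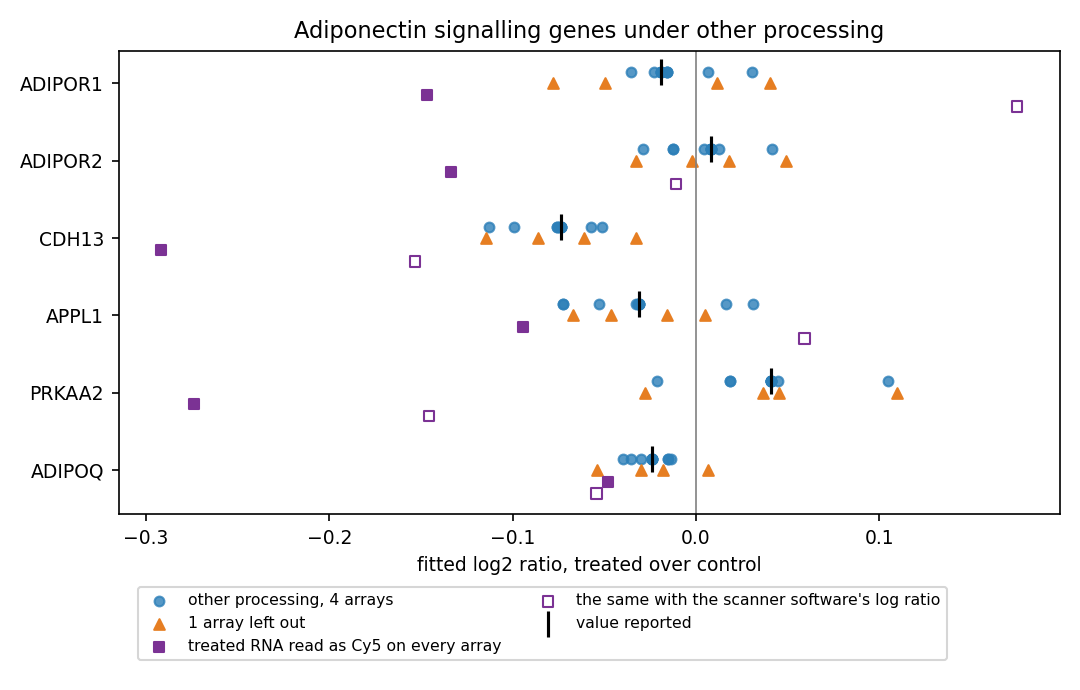
Fitted log2 ratio (horizontal axis) of the brightest tested probe of each gene. Black ticks are the values reported, blue points other processing of the 4 arrays, orange triangles fits with 1 array left out, and purple squares the reading with Cy5 as the treated channel throughout (open, with the scanner software's log ratio). Blue and orange points lie within 0.12 of 0 for all 6 genes, and the filled squares of CDH13 and PRKAA2 lie furthest from it, at -0.29 and -0.27.

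Other genes of the pathway were taken from 10 lists of 100 genes, of which 35 had a named probe and 29 were tested. By limma 0 of the 29 passed the adjusted threshold and 0 had an unadjusted p under 0.05. With Cy5 read as the treated channel throughout, 2 of the 29 passed in either direction, against 2331 of 25912 tested probes. Both were higher, RACK1 at 0.40 (limma adjusted p = 0.0116) and ACACA at 0.74 (limma adjusted p = 0.00175). Of all probes, 3.03% were higher past the threshold. Of the 29, 19 lay above and 10 below 0 (median 0.03), against 1049 of 1956 named genes above 0 (median 0.01). Among receptor adaptors and partners, 2 of 4 were above 0. CSNK2B counted as above 0 at 0.02, a sign shared by 1 of its 3 tested probes. APPL2, a relative of APPL1, had 0.05, and RACK1, a scaffold protein that binds ADIPOR1, had -0.09, a sign shared by 1 of its 4 tested probes. MAP3K7, an upstream kinase, had 0.03, and AKT1, a kinase of the insulin pathway, 0.04. Both AMPK substrates tested were above 0, with the hormone-sensitive lipase LIPE at 0.07 and ACACA, a carboxylase of fatty acid synthesis, at 0.03 (-0.12 to 0.17). These values of ACACA belong to its brightest probe, whose single arrays split by dye, from -0.72 on array 4 to 0.78 on array 1. The dye term of this probe was 0.74, and that of the second tested probe of ACACA was 0.09. No gene of the ceramide list was analysed here.

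The PPAR and fatty acid oxidation genes, the branch downstream of ADIPOR2, had 7 of 10 above 0 (median 0.03, and 0.003 to 0.07 with 1 array left out). Among the 7, ACADM had 0.03, a sign shared by 1 of its 7 tested probes. CPT1A, which brings fatty acids into mitochondria, had the highest ratio of the 29, 0.15 ± 0.09 (SE, n = 4 arrays, interval -0.04 to 0.35), and 5 of its 5 tested probes were above 0. Its limma adjusted p was 0.9999 with 4 arrays. Its ratio was 0.25 without array 4 and 0.05 without array 2, fits in which 1 array alone carries its dye. SIRT1, a deacetylase linked to AMPK, had the lowest ratio of this list, -0.07. The relatives of the receptors and of adiponectin had 5 of 5 above 0 (median 0.04), from PAQR8, a progesterone receptor of the same protein family as ADIPOR1, at 0.12 to C1QTNF6 at 0.004. With 1 array left out the median of that list ran from -0.002 to 0.06, the lowest without array 4. In the same list C1QTNF2 had 0.04, a sign shared by 1 of its 2 tested probes. Of the other cadherins, CDH5 of endothelial cells had 0.03 and CDH1 of epithelial cells -0.07, from 3 arrays. The sign of CDH1 was shared by 1 of its 2 tested probes. The other adipokines had 3 of 3 below 0 (median -0.02). The sign of that median was not steady: it ran from -0.07 to 0.04 with 1 array left out, and was 0.008 with median centring and 0.002 with uneven spots kept. LEP counted as below 0 at -0.02, while its second tested probe was at 0.09. NAMPT, an enzyme of NAD synthesis that is also secreted, had -0.15 (-0.33 to 0.03), and RARRES2, which encodes chemerin, -0.02.

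**Figure D5:**
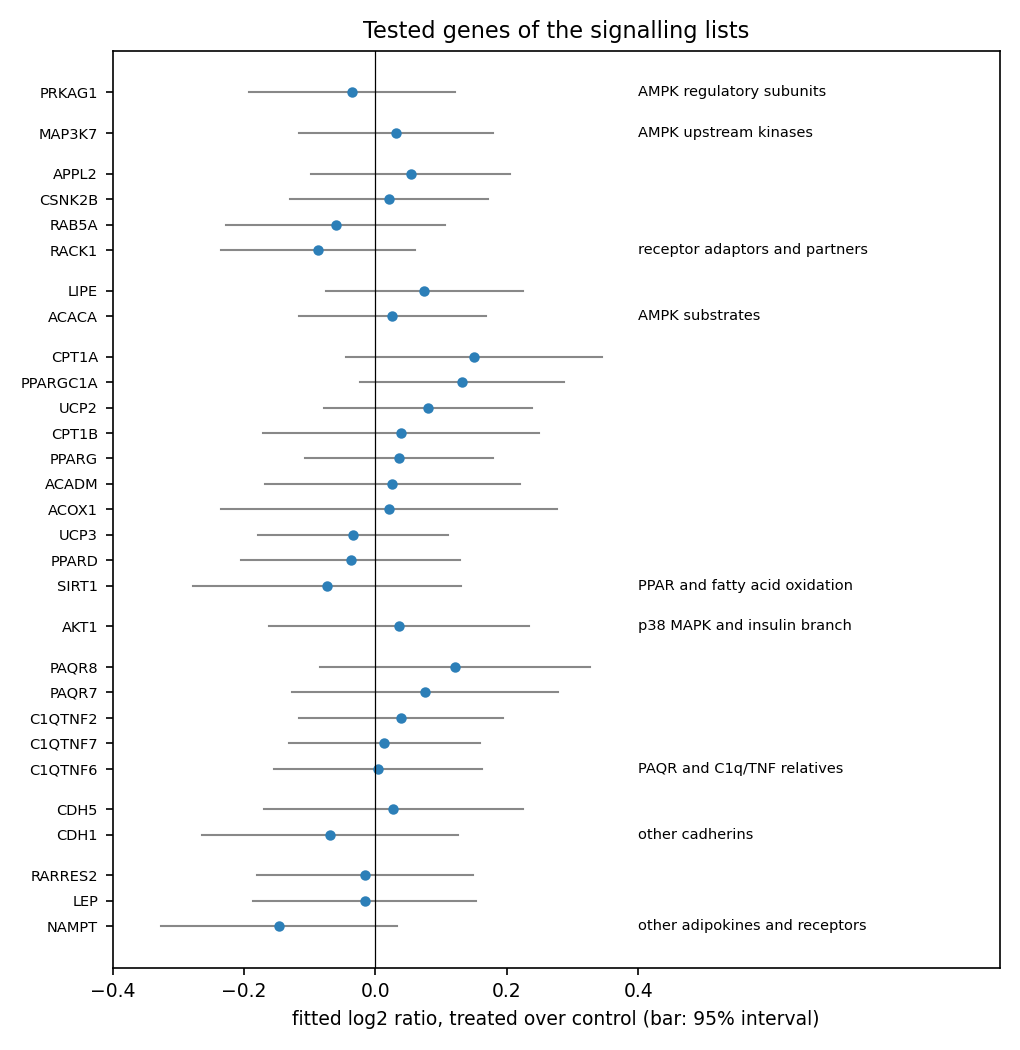
Fitted log2 ratio of treated over control cells (horizontal axis) with its 95% interval for the 29 tested genes of the signalling lists, grouped by list. Every interval holds 0, and CPT1A at 0.15 and NAMPT at -0.15 lie furthest out.

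The genes whose ratios lay nearest to those of the receptors were looked for among 1847 named genes with 4 values, by the root mean square distance over the 4 arrays. For ADIPOR1 they were PTBP3 (0.03), SLC9A3R2 (0.04) and RABAC1 (0.04), with a median distance over all genes of 0.23. For ADIPOR2 they were SERPINA1 (0.03), TYROBP (0.04) and IGF1 (0.04), with a median of 0.21. The fitted ratios of these 6 genes lay between -0.01, for PTBP3, and 0.04, for SERPINA1. The receptors lay 0.07 from each other. ADIPOR2 was the 26th nearest gene to ADIPOR1, and ADIPOR1 the 40th nearest to ADIPOR2. Distances over 4 arrays that share a dye pattern describe these arrays only.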

How the data were processed

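Per the file headers, the 4 arrays (design 026440) were quantified with Agilent Feature Extraction 10.7.3.1. The deposited scanner files hold median foreground and background intensity values per spot, processed signals and their red-to-green log10 ratio. In the deposited series matrix each probe has 1 log2 value, whose distance to the processed signals was under 0.01 for 100% of probes, with the sign set by the channel labels (column medians -0.04, 0.08, 0.04 and -0.05). Background was corrected with normexp (offset 50) and ratios were normalized by loess within arrays. Spots flagged as outliers (29 to 45 per array) or with uneven local background (939 to 1350 of 43803) were left out. Control spots had weight 0.

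A probe was tested if well above background in the treated or the control channel on at least 3 arrays, with values on at least 3 arrays: 25912 of 43603, of which 875 had 3 values. Tests used limma 3.58.1 in R 4.3.3 with a dye and a treatment term, two-sided, Benjamini-Hochberg adjusted over all tested probes, threshold 0.05. Each gene stands for its brightest tested probe. Accessions were matched to RefSeq symbols of Sscrofa11.1 (5578 probes). Besides the 6 genes of the set, the highest and lowest gene of each list and the 3 nearest genes by pattern are named. ACADM, LEP, C1QTNF2 and CSNK2B are named for tested probes of the opposite sign. RAB5A and CPT1B of the lists also had tested probes of both signs. The genes and lists were chosen with earlier results of these data known. Of 1 further list gene, the result is not reported here. The number of arrays limits the precision. No sequence is printed, since the files used here hold none.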

Additional observations from a re-analysis of the deposited data

Results flagged for a closer look

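The array values were checked in 53 groups of 4. In 2 of them a single array stood apart, and about 1 in 20 would do so by chance. The treated level of the second APPL1 probe was 9.20 on array 2, against 8.88 to 8.92 on the others. The median ratio of the receptor adaptors and partners was 0.0302 on array 2 and -0.04 on each of the others.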

How the results depend on the processing

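No probe of the 6 genes passed the threshold under 11 other settings of the 4 arrays or with 1 array left out. The count over all probes was 0 in those settings and ran from 0 to 832 with 1 array left out, where 1 array alone carries its dye. It was 2331 with Cy5 taken as treated throughout, where 2 probes of the set, of 2 genes, and the list genes RACK1 and ACACA passed, and 43 with the scanner software's log ratio beside that reading, added after seeing the data. CDH13 stayed below 0 in all of these; other signs near 0 turned, and the cause was not tested. With median centring, which moved the median of all probes to 0.03, ADIPOR1 had 0.0305, APPL1 0.0166, PRKAG1 0.0103, RACK1 0.0135, CDH1 0.0932, RARRES2 0.0335, PTBP3 0.0604, RABAC1 0.0784 and the adaptors' median 0.0483. The scanner software's log ratio and the series matrix both gave ADIPOR2 -0.0125 and the second CDH13 probe 0.00593. With uneven spots kept, ADIPOR2 had -0.0291, PRKAA2 -0.0212, APPL2 -0.0135, CDH5 -0.0493, RARRES2 0.00247, SLC9A3R2 -0.0257, SERPINA1 -0.00475, TYROBP -0.0364 and IGF1 -0.00896. Without background correction SLC9A3R2 had -0.0099. Averaging the probes of a gene gave ADIPOR1 0.00642, APPL1 0.0308, CDH1 0.0101 and TYROBP -0.00377. With Cy5 taken as treated throughout, the second ADIPOR1 probe had -0.0128, ADIPOR2 -0.133, the second APPL1 probe -0.0875, PRKAA2 -0.274, APPL2 -0.167, RACK1 0.396, ACACA 0.742, LIPE -0.0436, CPT1A -0.0844, SIRT1 0.166, PAQR8 -0.341, C1QTNF6 -0.0893, CDH5 -0.131, NAMPT 0.164, SLC9A3R2 -0.149, SERPINA1 -0.129, TYROBP -0.134 and IGF1 -0.111. The list medians were then -0.0721 for PPAR and fatty acid oxidation, -0.0893 for the receptor relatives and 0.102 for the adipokines. With the scanner software's log ratio beside that reading, ADIPOR1 had 0.175, ADIPOR2 -0.011, APPL1 0.0593, its second probe -0.24 and PRKAA2 -0.146. With 1 array left out the ranges were -0.0782 to 0.0403 for ADIPOR1, -0.0328 to 0.0489 for ADIPOR2, -0.0867 to 0.00543 for the second CDH13 probe, -0.067 to 0.00506 for APPL1, -0.0332 to 0.218 for its second probe, -0.0277 to 0.11 for PRKAA2 and -0.0542 to 0.00629 for ADIPOQ. Among list genes they were -0.0939 to 0.0211 for PRKAG1, -0.195 to 0.0473 for SIRT1, -0.0600 to 0.131 for AKT1, -0.0492 to 0.0567 for C1QTNF6, -0.0639 to 0.119 for CDH5 and -0.0734 to 0.0418 for RARRES2. Among the nearest genes they were -0.0623 to 0.035 for PTBP3, -0.0645 to 0.0737 for SLC9A3R2, -0.0707 to 0.0575 for RABAC1 and -0.0133 to 0.0247 for TYROBP. The dim probes of CDH13 and ADIPOQ limit the precision of their ratios.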
